A study of Mus musculus with 36 samples.

Results

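Lungs of mice given large sheets of graphene oxide (L) were set against lungs of mice given ultrasmall sheets (US), both taken 7 days after a single intranasal instillation. The question is whether sheet size matters at that time. The libraries were chosen by their titles, which mark the material, the day and the replicate: 3 L and 3 US libraries of day 7, 6 of the 36 libraries in the series. Both groups were wild-type female C57BL/6 mice, an inbred laboratory strain, were 10 weeks old at day 7 and had received 50 μg of graphene oxide per mouse in 5% dextrose. Small sheets (S, 50 μg) and 5% dextrose alone (D, 0 μg), with 3 libraries each in mice of the same strain, sex and age, served as background at day 7, and the same materials at days 1 and 28, in mice of 9 and 13 weeks, as the earlier and the later state. The size names are the study's, the titles hold only the letters, and the treatment label is the same for L, S and US. Groups comprised 4 to 5 animals, per the labels' protocols. Since the labels do not link libraries with animals, the spread behind each p-value is that of the libraries and may be technical. The RNA came from small pieces of every lobe after the large airways had been removed. In such whole tissue, fewer cells of a type and less RNA per cell cannot be told apart.

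Graphene oxide is an oxidised form of graphene, a sheet of carbon a single atom layer thick. In the alveoli, inhaled particles are taken up mainly by resident alveolar macrophages, and further macrophages can arise from blood monocytes. Macrophages that hold undigested material are known for high transcript levels of lysosomal proteases, of lipid-handling proteins and of Mmp12, the macrophage elastase, a secreted metalloproteinase that degrades elastin of the alveolar wall and is known from smoke-induced emphysema in mice. Gpnmb, a glycoprotein of lysosome-rich macrophages, and Trem2, a receptor for lipids and cell debris on macrophages, mark the same state.

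The promoters of Mmp12, Trem2 and Gpnmb are shown because these 3 genes had the smallest p-values of the 20 genes listed as marking macrophages that hold particles. Each sequence holds the 250 bases before the transcript start, from the RefSeq promoter table on build GRCm38.p6, and all 3 genes had an entry there. Capitals mark matches, on either strand, to motifs of factors that are active in macrophages: PU.1 (GAGGAAGT), AP-1 (TGANTCA, where N is any base) and the MiT/TFE factors of lysosomal genes (TCANGTGA).
Mmp12, chr9:7344147-7344396, + strand: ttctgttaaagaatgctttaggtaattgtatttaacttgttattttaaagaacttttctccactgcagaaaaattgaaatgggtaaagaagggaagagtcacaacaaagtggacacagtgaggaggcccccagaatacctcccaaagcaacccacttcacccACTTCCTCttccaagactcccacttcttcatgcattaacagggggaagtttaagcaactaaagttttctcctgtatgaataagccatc
Trem2, chr17:48346151-48346400, + strand: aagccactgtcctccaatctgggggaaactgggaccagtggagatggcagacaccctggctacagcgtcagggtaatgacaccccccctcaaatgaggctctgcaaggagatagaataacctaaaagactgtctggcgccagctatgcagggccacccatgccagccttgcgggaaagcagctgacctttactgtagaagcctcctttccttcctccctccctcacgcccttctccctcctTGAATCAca
Gpnmb, chr6:49036268-49036517, + strand: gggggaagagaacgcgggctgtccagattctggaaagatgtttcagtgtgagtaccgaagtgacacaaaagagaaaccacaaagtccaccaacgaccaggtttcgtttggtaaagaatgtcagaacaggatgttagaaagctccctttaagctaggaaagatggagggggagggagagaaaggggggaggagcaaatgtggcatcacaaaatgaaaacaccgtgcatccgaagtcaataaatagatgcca
The Mmp12 window held 1 PU.1 match, read on the opposite strand, at position -88 counted from the start, and the Trem2 window 1 AP-1 match at position -9. The Gpnmb window held no match to these letters. Of 32851 distinct RefSeq promoter windows of the same length, 2.44% held a PU.1 match, 6.75% an AP-1 match and 3.45% a MiT/TFE match. Mmp12 has a second annotated start, whose window held 1 AP-1 and 1 MiT/TFE match and is not shown. A match is a description of letters and was not tested as a binding site.

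Total counts of the 6 libraries ran from 17479799 to 21834691, so that 1 CPM (counts per scaled library total) rested on 18.0 to 22.3 counts. Across the series the totals were 16154696 to 23808264, apart from S replicate 2 of day 7 at 80566751. Sftpc, the surfactant protein of alveolar type 2 cells, stood at 28422, 23216 and 16247 CPM in L lungs and at 17528, 23382 and 17705 CPM in US lungs. Transcripts of heart muscle were also present in both groups, at 143 to 179 CPM summed over 9 markers in L lungs and 99.2 to 150.1 CPM in US lungs.

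The libraries did not group by material over all genes. The log CPM of L replicate 3 correlated at 0.980 with L replicate 1 and at 0.990 with L replicate 2, but at 0.994 with US replicate 1, the highest of the 15 pairs among the 6 libraries. L replicate 2 correlated at 0.990 with L replicate 1 and at 0.993 with US replicate 2, and that pair differed least in a chi-square of the counts (10.5 per degree of freedom, against 13.8 for L replicate 3 and US replicate 1). The libraries also differed along transcript GC content and length. In the fifth of genes with the highest GC content, L replicates 1 and 2 deviated from the mean of the 6 libraries by 0.12 and 0.17 (median, log2), and L replicate 3 by -0.08, on the side of US replicates 1 and 3 (-0.10 and -0.10), with US replicate 2 at -0.01. Across 16835 genes the log2 fold change between L and US correlated with GC content (Pearson's r = 0.287, Spearman's rho = 0.341) and with log length (r = -0.221, rho = -0.285). Genes are not independent replicates, the points share the 6 libraries, and these values are descriptions.

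**Figure D1:**
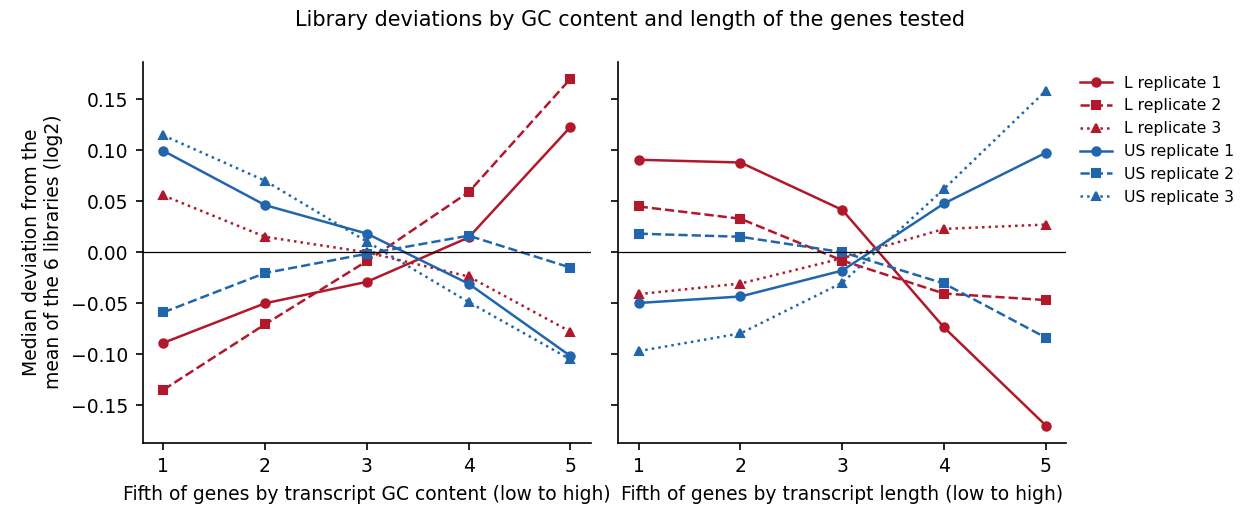
Median deviation of each library from the mean of the 6 libraries (log2 CPM) in 5 equal bins of the genes tested, ordered by transcript GC content (left) and transcript length (right), for 3 L and 3 US libraries. L replicates 1 and 2 climb with GC content, to 0.12 and 0.17, whereas L replicate 3 descends to -0.08, as do US replicates 1 and 3.

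At day 7 Mmp12 was the only transcript past the adjusted threshold between large and ultrasmall sheets in the fit of all 36 libraries. It stood at 216, 54.4 and 115.1 CPM in L lungs and at 4.98, 5.32 and 8.25 CPM in US lungs, which rested on 1044 to 4155 reads in L lungs and on 96 to 169 reads in US lungs. All 3 L libraries lay above all 3 US libraries, the lowest L value being 6.59 times the highest US value. Mmp12 averaged 128.6 ± 81.7 CPM in L lungs and 6.18 ± 1.80 CPM in US lungs (SD, n = 3 each), a 20.8-fold rise (log2 fold change 4.38 ± 0.48 SE, edgeR's quasi-likelihood test with Benjamini-Hochberg adjustment, adjusted p = 8.48e-06). Per length, on the deposited TPM scale, the levels were 156, 36.8 and 57.5 TPM in L lungs and 2.69, 2.64 and 4.50 TPM in US lungs. Mmp12 (ENSMUSG00000049723) spans 7344381 to 7369499 on chromosome 9 in GRCm38, a span that takes in all exons and introns.

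Mmp12 was also higher in the L lungs of day 7 than in any library without large sheets. S lungs of day 7 held 13.4, 10.9 and 19.3 CPM and D lungs 4.07, 4.90 and 7.20 CPM, so the US values overlapped those of D while the S values lay above both. The highest of all 27 libraries given other sheets or dextrose, over the 3 days, was the 19.3 CPM of S replicate 3 at day 7, and the lowest L library of day 7 was 2.81 times as high. Within the L group the values spread 3.97-fold, against 1.66-fold within the US group. Leaving out each of the 6 libraries in turn kept the log2 fold change between 3.77 and 4.76 and the edgeR adjusted p at or under 0.000733. In a fit of the 6 libraries alone, with fewer libraries to estimate the spread, the log2 fold change was 4.38 and the edgeR adjusted p was 0.11. An exact two-sided permutation test of Mmp12 alone gave p = 0.1, the smallest that 3 against 3 libraries allow.

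**Figure D2:**
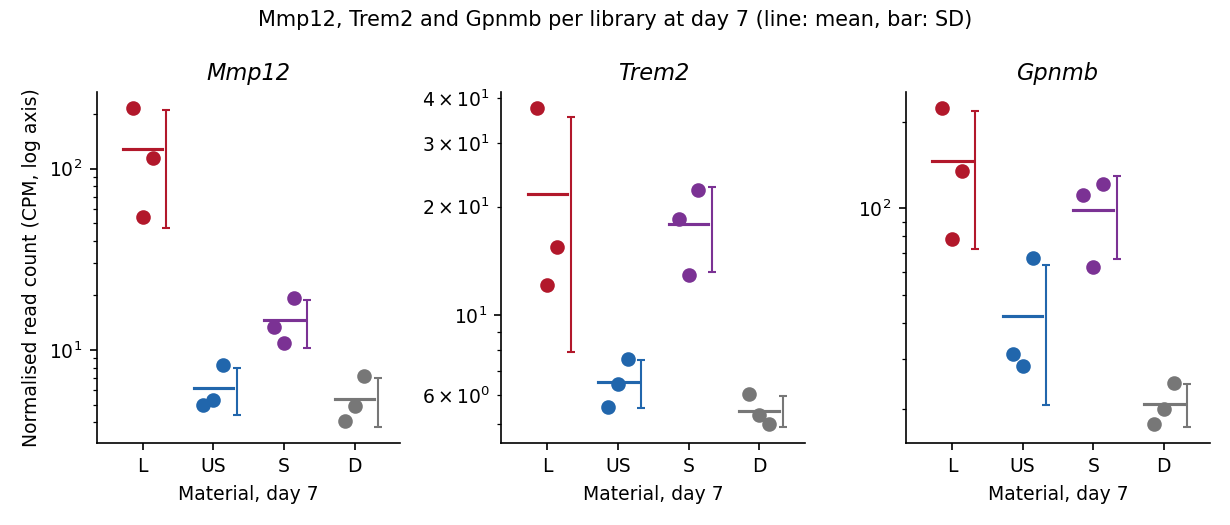
Normalised read counts (CPM, log axis) of Mmp12, Trem2 and Gpnmb in each library of day 7 by material, with the group mean as a line and the SD as a bar (n = 3). All 3 L libraries lie above all 3 US libraries for each gene, and for Trem2 and Gpnmb the S libraries overlap them.

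Mmp12 was 1 gene higher in L lungs of the 16903 tested, 0.00592%, and 0 genes (0%) were lower. At an unadjusted p under 0.05, 2534 genes (15%) passed in edgeR, 1335 (7.9%) higher and 1199 (7.09%) lower. The 3 L libraries lay wholly above the 3 US libraries for 694 genes (4.11%) and wholly below for 616 (3.64%). The median log2 fold change of all genes tested was -0.01, and its quartiles were -0.18 and 0.19. DESeq2, run as an alternative, called 3 of 16900 genes (0.0178%): Mmp12 and Trem2 higher and Alox5 lower. Without L replicate 3 edgeR called 862 of 17151 genes (5.03%), of which 586 (3.42%) were higher and 276 (1.61%) lower. The higher genes had a median transcript GC content of 54.4% and length of 846 bases and the lower genes 44.8% and 2161 bases, against 50.0% and 1434 bases over all genes tested. The part of GC content and length in those calls was not tested. Among the lists, that setting called 5 of 20 particle macrophage genes (Mmp12, Gpnmb, Trem2, Spp1 and Lgals3) and 8 of 19 respiratory chain genes, all higher in L. Many other lists held fewer calls, among them C1qa, C1qb, C1qc, Cldn5, Egfl7 and Klf2 higher. The calls lower in L within the lists were Il1b, Fos, Dnah11 and Sec14l3. Leaving out L replicate 2 gave 3 calls (0.0175%) and leaving out US replicate 2 gave 5 (0.0291%), while each of the other 3 libraries left out gave 1.

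**Figure D3:**
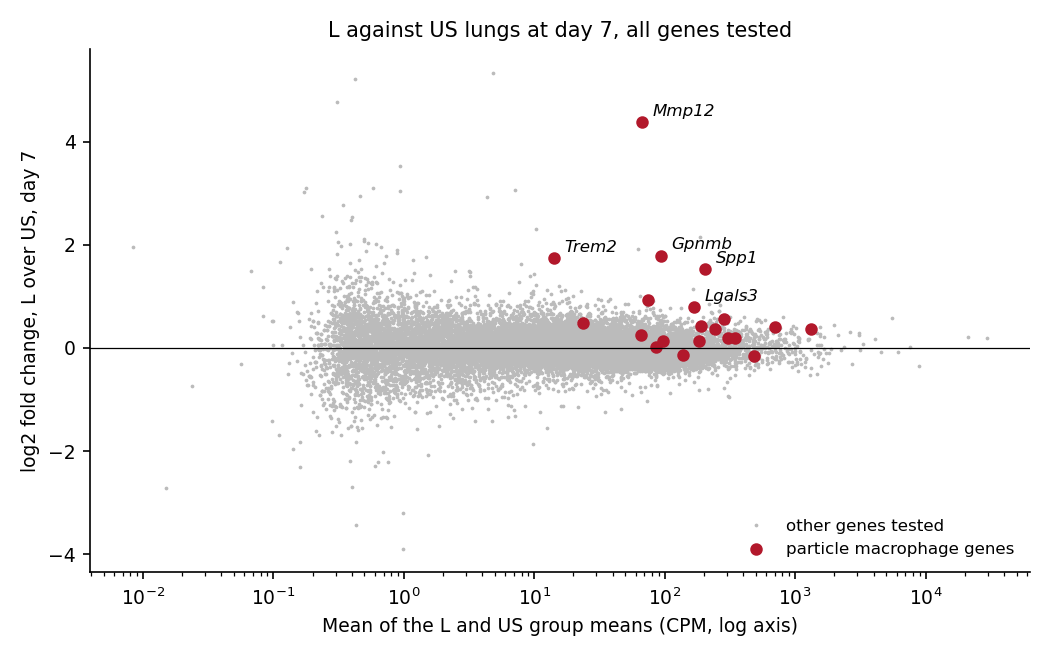
Log2 fold change of L over US at day 7 against the mean of both group means (CPM, log axis) for the 16903 genes tested, 1 point a gene, with the 20 particle macrophage genes as large red points. Mmp12 lies at 4.38, and Trem2, Gpnmb and Spp1 lie between 1.53 and 1.79.

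No other metalloproteinase passed the test. Of 23 annotated mouse genes named Mmp and a number, 15 were tested and 1, Mmp12, was called. The log2 fold changes of the other 14 ran from -0.36 to 0.74, with a median of -0.09, and 6 of the 14 were positive. A cluster of 10 of the 23, Mmp12 among them, lies on chromosome 9 between 7272514 and 7699585, and 4 of these were tested. Mmp3, stromelysin-1, held 25.5, 26.2 and 26.1 CPM in L lungs and 19.4, 21.0 and 23.8 CPM in US lungs. Mmp13, collagenase-3, held 1.40, 1.09 and 1.42 CPM in L lungs and 1.08, 0.443 and 0.781 CPM in US lungs. Of the 14, these 2 lay wholly above US in L lungs and 0 lay wholly below, where 4.11% and 3.64% of all genes did so. Neither passed the test (edgeR adjusted p = 0.648 for Mmp3 and 0.35 for Mmp13). Mmp13 lay near 1 CPM, which rested on 18.0 to 22.3 counts. Mmp8, the neutrophil collagenase, was at 5.62, 4.74 and 5.31 CPM in L lungs and at 6.28, 6.32 and 5.27 CPM in US lungs, with overlap. Timp1, an inhibitor of metalloproteinases, stood at 16.4, 12.1 and 12.8 CPM in L lungs and 6.06, 13.1 and 7.03 CPM in US lungs (log2 0.67 ± 0.65, edgeR adjusted p = 0.623). Eln, which encodes the substrate elastin, overlapped between the groups, at 359, 259 and 255 CPM in L lungs and 244, 348 and 226 CPM in US lungs. This family was taken whole by symbol after the Mmp12 result was known.

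Of 20 particle macrophage genes, 1 rose (Mmp12), 0 fell and 19 did not pass the test. Their log2 fold changes had a median of 0.38, against -0.01 for all genes tested, and 18 of 20 were positive. For 7 of the 20 (Mmp12, Gpnmb, Trem2, Fabp5, Lgals3, Ctsk and Ctsb) all L libraries lay above all US libraries, where 4.11% of all genes did so, and for 0 all lay below. Without L replicate 1 the median was 0.08, and without any other library it lay between 0.34 and 0.52. The list was drawn up with earlier results of these libraries known, so its direction is not independent evidence.

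Gpnmb stood at 224, 78.0 and 135.5 CPM in L lungs and 31.2, 28.3 and 67.0 CPM in US lungs. The lowest L value was above the highest US value, and S lungs, at 111.3, 62.5 and 121.6 CPM, overlapped L. The difference was 3.45-fold (log2 1.79 ± 0.44, edgeR adjusted p = 0.318), and it passed the threshold only without L replicate 3 (edgeR adjusted p = 0.0394). Trem2 stood at 37.5, 12.1 and 15.5 CPM in L lungs and 5.56, 6.43 and 7.57 CPM in US lungs. The groups did not overlap, and S lungs (18.4, 12.9 and 22.3 CPM) lay among the L lungs while D lungs (6.04, 5.28 and 5.00 CPM) lay with the US lungs. The difference in Trem2 was 3.33-fold (log2 1.73 ± 0.34, edgeR adjusted p = 0.101). It passed in DESeq2 (adjusted p = 0.00223), in edgeR without a filter on low counts (adjusted p = 0.0101) and without L replicate 2 or 3 (edgeR adjusted p = 0.0149 and 0.0389). Without L replicate 1 the log2 difference in Trem2 was 1.08 (edgeR adjusted p = 0.957).

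Spp1, the secreted protein osteopontin, held 569, 135.3 and 211 CPM in L lungs and 99.9, 69.9 and 147 CPM in US lungs. L replicate 1 was far above the others, and L replicate 2 lay below US replicate 3. Lgals3, the carbohydrate-binding protein galectin-3 of macrophages, held 316, 172 and 152 CPM in L lungs and 103.6, 146 and 119.1 CPM in US lungs. Neither passed (log2 1.53 ± 0.48 for Spp1 and 0.80 ± 0.23 for Lgals3, edgeR adjusted p = 0.318 for both). Without L replicate 1 the log2 differences were 0.71 and 0.40, and without L replicate 3 both passed (edgeR adjusted p = 0.0459 and 0.0389). Of the lysosomal proteases, cathepsin K (Ctsk) stood at 139, 63.1 and 88.9 CPM in L lungs and 38.4, 52.8 and 62.1 CPM in US lungs, without overlap. Cathepsin B (Ctsb) stood at 1005, 661 and 725 CPM in L lungs and 567.0, 620 and 629 CPM in US lungs, also without overlap. Cathepsin D (Ctsd) overlapped, at 2011, 1195 and 1225 CPM in L lungs and 995 to 1386 CPM in US lungs. Fabp5, a fatty acid carrier, was at 343, 244 and 237 CPM in L lungs and 200 to 223 CPM in US lungs. The edgeR adjusted p of these 4 ran from 0.318 to 0.343. Lgals3, Spp1 and the cathepsins were chosen after their values were seen, as was every gene named here other than Mmp12, Nr1d2 and the first 3 of each gene list.

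Within the L group the order of the libraries was the same for Mmp12, Trem2, Gpnmb, Spp1 and Ctsk, with replicate 1 highest, replicate 3 next and replicate 2 lowest. Not all members shared this order: for Lgals3 and Fabp5 replicate 1 was highest too, but replicate 2 lay above replicate 3. Nor was the order particular to this list, since Retnla, Scgb3a1 and Bpifa1, given below, had it as well. The score of the 20 particle macrophage genes (their mean log2 CPM relative to each gene's mean over the 36 libraries) was 0.99, 0.12 and 0.34 in L lungs and -0.33, -0.27 and 0.07 in US lungs. S lungs scored 0.27, -0.00 and 0.45 and D lungs -0.45, -0.38 and -0.32. The L and US scores did not overlap, but the gap between L replicate 2 and US replicate 3 was small beside the spread within either group. Cd68, a lysosomal membrane protein present in macrophages in general, overlapped, at 88.6, 56.6 and 70.2 CPM in L lungs and 52.4, 56.6 and 72.9 CPM in US lungs. Summed over the 20 genes, the level was 4628 to 7725 CPM in L lungs and 3980 to 4991 CPM in US lungs.

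Markers of other macrophages gave a mixed picture. Of 15 monocyte and interstitial macrophage markers 0 were called, and the median was 0.11. It was -0.01 without L replicate 1, 0.06 without US replicate 3, and 0.20 and 0.29 without L replicate 2 and US replicate 2. In L lungs 3 of the 15, the subunits of complement C1q, lay wholly above US, as 4.11% of all genes did. C1qc stood at 52.3, 23.8 and 22.9 CPM in L lungs and 15.4, 20.8 and 18.4 CPM in US lungs (log2 0.86 ± 0.24, edgeR adjusted p = 0.318). C1qa (log2 0.73 ± 0.22) and C1qb (0.68 ± 0.21) had the same adjusted p. L replicate 1 was the high library for all 3 genes, and without it the log2 differences were 0.31 to 0.36. Of 15 markers of resident alveolar macrophages 0 were called, 13 were negative and the median was -0.25. US replicate 3 had the highest score of that list, 0.35, against -0.21 to 0.08 in L lungs and -0.06 and -0.04 in the other US lungs, and without it the median was -0.05. Siglecf, a surface lectin of alveolar macrophages, stood at 21.1, 19.4 and 21.3 CPM in L lungs and 25.4, 24.1 and 31.3 CPM in US lungs, wholly below (log2 -0.39 ± 0.13, edgeR adjusted p = 0.318). Pparg, the transcription factor needed for alveolar macrophage identity, was at 19.1, 14.4 and 16.2 CPM in L lungs and 18.6, 17.5 and 28.5 CPM in US lungs, with overlap. Marco, a scavenger receptor, overlapped too, at 44.1, 34.0 and 29.4 CPM in L lungs and 34.9, 26.2 and 60.4 CPM in US lungs. The summed level of the 15 markers was 1673 to 2404 CPM in L lungs and 1850 to 3286 CPM in US lungs.

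Most neutrophil chemokines and acute cytokines, taken as a list, had lower values in L lungs without passing the test. Of 10 tested 0 were called, 8 were negative and 2 positive. The median was -0.36 (-0.15 without US replicate 2 and -0.21 without US replicate 3). In L lungs 4 (Cxcl2, Il1b, Tnf and Ptgs2) lay wholly below US, where 3.64% of all genes did so. Of these 4 only Cxcl2 is a neutrophil chemokine. Il1b, the inflammasome-dependent cytokine, stood at 12.6, 25.6 and 24.1 CPM in L lungs and 69.7, 45.6 and 31.7 CPM in US lungs, with D lungs at 23.9 to 39.1 CPM. The log2 difference was -1.24 ± 0.34 (edgeR adjusted p = 0.318), and it passed without L replicate 3 (edgeR adjusted p = 0.0459). Cxcl2, a chemokine for neutrophils, stood at 0.208, 0.104 and 0.506 CPM in L lungs and 1.35, 0.776 and 1.22 CPM in US lungs, on 4, 2 and 10 reads in L lungs and 30, 14 and 25 in US lungs. Tnf was at 0.937, 0.730 and 0.860 CPM in L lungs and 0.942, 1.496 and 1.03 CPM in US lungs, so that the ranges nearly touched. Ptgs2, the inducible cyclooxygenase, was at 15.1, 17.5 and 18.6 CPM in L lungs and 22.1, 19.6 and 26.8 CPM in US lungs. Cxcl5, a further neutrophil chemokine, was low in both, at 0.520, 0.417 and 0.556 CPM in L lungs and 0.179, 0.610 and 1.07 CPM in US lungs, while S lungs held 2.83, 16.2 and 17.2 CPM.

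Of 12 neutrophil markers 0 were called, and their median was -0.37. S100a9, a calcium-binding protein of neutrophils, overlapped, at 67.5, 117.2 and 51.7 CPM in L lungs and 177, 100 and 42.5 CPM in US lungs. Csf3r, the receptor for granulocyte colony-stimulating factor, also overlapped, at 22.7, 45.0 and 35.5 CPM in L lungs and 93.6, 42.4 and 38.1 CPM in US lungs. US replicate 1 was the high library for both, and without it the median of the list was 0.02.

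Immediate early genes, which are transcribed within minutes of a stimulus, also had lower values in L lungs without passing the test. Of 18 tested 0 were called, 13 were negative and the median was -0.38 (-0.46 to -0.31 as single libraries were left out). Fos, a subunit of AP-1, stood at 36.1, 42.8 and 65.4 CPM in L lungs and 114.04, 89.1 and 92.9 CPM in US lungs, with D lungs at 71.4, 74.1 and 107.5 CPM and S lungs at 150.3 to 155.9 CPM. The log2 difference was -1.04 ± 0.30 (edgeR adjusted p = 0.318), and it passed without L replicate 3 (edgeR adjusted p = 0.0394). Cyr61, a matricellular protein, stood at 156, 217 and 263 CPM in L lungs and 524, 303 and 395 CPM in US lungs. Nr4a1, Nr4a3 and Zfp36 were wholly below US as well, so 5 of the 18 were, where 3.64% of all genes were. Scores of the list were -0.22, -0.11 and -0.11 in L lungs and 0.32, 0.04 and 0.18 in US lungs, with D lungs at 0.14 to 0.37.

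Transcripts of secretory airway cells were higher in every L library than in any US library for several genes, none of which passed the test. For Bpifa1, Scgb3a1, Bpifb1 and Reg3g every US library also lay below every D library. Of 13 club and secretory cell markers 0 were called, 11 were positive, the median was 0.60, and 5 (Scgb3a1, Bpifa1, Bpifb1, Muc5b and Reg3g) lay wholly above US, as 4.11% of all genes did. The median was 0.14 without L replicate 1, 0.38 without US replicate 1 and 0.99 without US replicate 2. Bpifa1, a secreted antimicrobial protein of large airways and nose, stood at 25.3, 5.47 and 7.43 CPM in L lungs, 1.79, 1.55 and 1.22 CPM in US lungs and 17.0, 25.7 and 158 CPM in D lungs. Scgb3a1, a secretoglobin of airway cells, stood at 174, 46.1 and 75.8 CPM in L lungs, 28.8, 31.9 and 17.8 CPM in US lungs and 95.4, 65.8 and 167 CPM in D lungs. Reg3g, an antibacterial lectin, was at 10.9, 1.93 and 10.3 CPM in L lungs, 1.44, 1.05 and 0.537 CPM in US lungs and 10.8, 5.77 and 42.3 CPM in D lungs. The log2 differences were 3.06 ± 1.24, 1.92 ± 0.72 and 2.92 ± 1.23 in that order (edgeR adjusted p = 0.318 to 0.32). Without L replicate 1 that of Scgb3a1 was 1.22. Scgb1a1, the main secretory product of club cells, overlapped, at 36950, 33919 and 23901 CPM in L lungs and 23197, 34707 and 24825 CPM in US lungs. Scgb3a2, the companion secretoglobin, overlapped as well. Other airway lists went the other way: 9 of 14 ciliated cell markers were negative, with a median of -0.18 (0.04 without US replicate 3). Of 11 genes of multiciliated cell formation 8 were negative, with a median of -0.15 (-0.04 without US replicate 3). In both lists 0 were called. How much of the larger airways each piece of lung held is not labelled, and its part in these values was not tested.

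Retnla and the mucus genes of the type 2 response had the same direction. Of 10 tested type 2 genes 0 were called, the median was 0.41, and 3 (Retnla, Clca1 and Muc5ac) lay wholly above US, as 4.11% of all genes did. For Clca1 and Muc5ac the lowest L value barely cleared the highest US value. Retnla, a secreted protein of alternatively activated macrophages and airway cells, stood at 529, 173 and 215 CPM in L lungs and 43.8, 89.2 and 74.6 CPM in US lungs, with S lungs at 124.99 to 209 CPM and D lungs at 81.9 to 91.9 CPM. The difference was 4.42-fold (log2 2.14 ± 0.61, edgeR adjusted p = 0.318, and 0.0415 without L replicate 3). Clca1, a secreted goblet cell protein, was high in 1 library, with 0.520, 1.88 and 25.8 CPM in L lungs and 0.493, 0.166 and 0 CPM in US lungs, while D lungs held up to 11.2 CPM. Muc5ac, the inducible airway mucin, was at 1.67, 1.98 and 2.07 CPM in L lungs and 0.763, 1.05 and 1.66 CPM in US lungs.

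**Figure D4:**
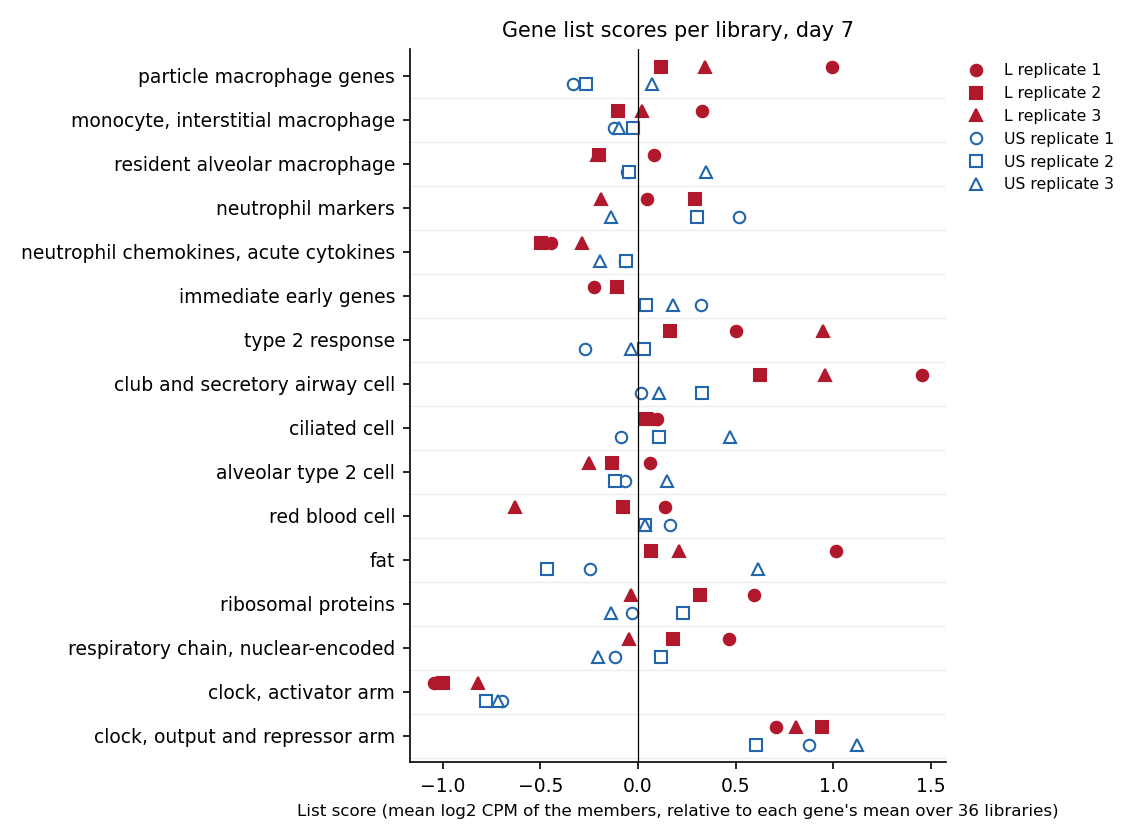
Scores of 16 gene lists (mean log2 CPM of the tested members, relative to each gene's mean over the 36 libraries) in the 3 L libraries (filled) and the 3 US libraries (open) of day 7. For the particle macrophage list the L scores run from 0.12 to 0.99 and the US scores from -0.33 to 0.07, and for club and secretory cells the L scores run from 0.63 to 1.45 and the US scores from 0.02 to 0.33.

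In all, 47 of 48 lists had at least 5 tested members, covering 599 genes with the list that fell short, and 1 list held a call. List medians ran from -0.60 to 0.63. Of the 47 lists, the 3 L scores lay above the 3 US scores for 4 (particle macrophage, type 2 response, club and secretory cell, and smooth muscle). They lay below for 3 (neutrophil chemokines and acute cytokines, immediate early genes, and the activator arm of the clock). Of all single genes, 4.11% lay wholly above and 3.64% wholly below, and the scores were not tested. Alveolar type 2 cell markers had a median of -0.07 over 13 genes and alveolar type 1 cell markers -0.06 over 12, with 0 called in either. Slc34a2, the phosphate carrier of type 2 cells, was at 2517, 2345 and 2484 CPM in L lungs and 2865, 2610 and 3628 CPM in US lungs, wholly below. Endothelial junction and quiescence genes had a median of 0.04 over 17, and Cldn5, the tight junction protein claudin-5, stood at 371, 313 and 171 CPM in L lungs and 159, 238 and 139 CPM in US lungs. T and NK cell markers (21 genes, median 0.06), B and plasma cell markers (16, 0.08), extracellular matrix genes (17, 0.01) and interferon-stimulated genes (20, -0.08) also had 0 called. Medians this near 0 changed size or sign as single libraries were left out. Red blood cell genes had a median of -0.20 over 8 genes, which was -0.47 without L replicate 1 and -0.02 without L replicate 3. Among them Alas2, the first enzyme of erythroid haem synthesis, stood at 37.7, 41.1 and 38.5 CPM in L lungs and 79.6, 61.4 and 78.7 CPM in US lungs (log2 -0.91 ± 0.25, edgeR adjusted p = 0.318). Fat genes had a median of 0.63 over 8 genes, which was 0.01 without L replicate 1 and 1.73 without US replicate 3, and Adipoq, the adipocyte hormone adiponectin, stood at 1.98, 0.469 and 0.961 CPM in L lungs and 0.0897, 0.0554 and 0.830 CPM in US lungs.

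Genes of the ribosome and of respiration had small differences, most of them positive. Of 20 ribosomal protein genes 19 were positive, with a median of 0.28, and of 19 nuclear-encoded respiratory chain genes 17 were positive, with a median of 0.26. No member of either list was called. Without L replicate 1 the medians were 0.11 and 0.14, and without L replicate 3 they were 0.42 and 0.38. With GC and length trends removed the medians were 0.18 and 0.28. The scores of L replicate 3 were -0.04 and -0.05, within the US ranges of -0.14 to 0.23 and -0.21 to 0.12.

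Clock genes held 0 calls at day 7. Of the 6 genes of the activator arm 5 were negative, with a median of -0.26 (-0.13 without US replicate 3), and their scores were -1.04, -0.996 and -0.82 in L lungs and -0.70, -0.78 and -0.72 in US lungs, without overlap. Nfil3, a repressor of clock output genes, lay wholly below US, at 5.67, 5.47 and 7.38 CPM in L lungs and 11.8, 7.76 and 9.37 CPM in US lungs. The 13 genes of the output and repressor arm had a median of -0.07, which was 0.02 without US replicate 3. Dbp, an output transcription factor, stood at 172, 141 and 119.1 CPM in L lungs and 112.5, 99.4 and 132.6 CPM in US lungs, against 34.4, 31.2 and 8.80 CPM in D lungs. Arntl, the activator, stood at 6.19, 6.78 and 9.15 CPM in L lungs and 10.0, 11.7 and 6.74 CPM in US lungs, against 26.2 to 45.1 CPM in D lungs. Npas2, its alternative partner, was at 1.87, 1.77 and 2.12 CPM in L lungs and 1.48, 2.38 and 1.27 CPM in US lungs. For Dbp and Arntl, L and US lungs overlapped and both lay apart from D lungs. S lungs, also given graphene oxide, scored -0.04, 0.08 and 0.14 in the activator arm, and D lungs -0.16, -0.19 and 0.45. In the output and repressor arm S lungs scored -0.35, -0.08 and -0.34 and D lungs -0.16, -0.29 and -0.69. L and US lungs scored 0.60 to 1.12 there. In both arms S lungs thus lay with D lungs and apart from L and US lungs. The hour at which tissue was taken is not labelled, and its part was not tested.

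Among genes outside the lists, those with the smallest p-values after Mmp12 and Trem2 were Npy and Alox5. Npy, a neuropeptide, gave 31, 5 and 12 reads in L lungs and 0, 1 and 0 in US lungs (edgeR adjusted p = 0.101). At these counts only the presence of reads can be read. Alox5, the 5-lipoxygenase that starts leukotriene synthesis in myeloid cells, stood at 14.8, 16.0 and 16.6 CPM in L lungs and 22.7, 23.1 and 23.0 CPM in US lungs, while S lungs (14.9 to 19.4 CPM) and D lungs (16.3 to 17.9 CPM) lay with or near L. The spread within both groups was narrow beside the gap, and the difference was 1.45-fold lower in L (log2 -0.54 ± 0.11, edgeR adjusted p = 0.101, DESeq2 adjusted p = 0.0261). Cytip, a regulator of lymphocyte adhesion, stood at 91.3, 103.45 and 113.7 CPM in L lungs and 155, 113.7 and 145 CPM in US lungs (log2 -0.42 ± 0.10, edgeR adjusted p = 0.318). Mfge8, a bridging protein by which macrophages take up dying cells, stood at 402, 306 and 260 CPM in L lungs and 190, 212 and 189 CPM in US lungs (log2 0.71 ± 0.20, edgeR adjusted p = 0.318). These genes were chosen after their values were seen.

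The difference in Mmp12 was compared with that of the earlier and the later day, in other libraries of the same fit. At day 1 Mmp12 stood at 14.7, 22.2 and 5.94 CPM in L lungs and 4.94, 7.94 and 12.1 CPM in US lungs, with overlap (log2 0.78 ± 0.45, edgeR adjusted p = 0.87). At day 28 it stood at 405, 110 and 281 CPM in L lungs and 9.90, 7.58 and 10.6 CPM in US lungs (log2 4.82 ± 0.48, edgeR adjusted p = 8.97e-07). The change from day 1 to day 7, tested as an interaction, was 3.60 ± 0.64 on the log2 scale and missed the threshold in edgeR (adjusted p = 0.0801), with 0 of 16903 genes (0%) called and 1312 (7.76%) at an unadjusted p under 0.05. DESeq2 called Mmp12 alone in that interaction (adjusted p = 0.000765), as did edgeR without a filter on low counts (adjusted p = 0.00124) and with GC and length trends removed (adjusted p = 0.024). It passed in edgeR without L replicate 2 of day 1, L replicate 2 of day 7 or US replicate 1 of day 1 as well (adjusted p = 0.0268, 0.00568 and 0.019), and not without any other single library. Between day 7 and day 28 the difference in Mmp12 changed by 0.45 ± 0.62 (edgeR adjusted p = 0.934). Within 1 day, edgeR called 0 genes between L and US at day 1 (0%, with 1060, or 6.27%, at an unadjusted p under 0.05) and 87 at day 28 (0.515%), of which 59 (0.349%) were higher and 28 (0.166%) lower.

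**Figure D5:**
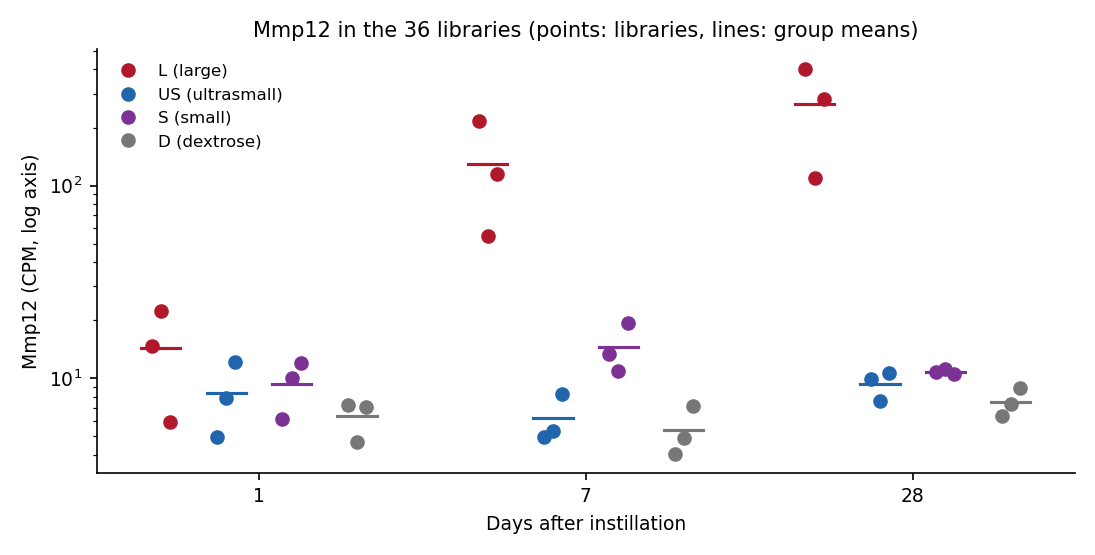
Mmp12 (CPM, log axis) in each of the 36 libraries by day and material, with lines at the group means. L lungs lie at 5.94 to 22.2 CPM at day 1, 54.4 to 216 CPM at day 7 and 110 to 405 CPM at day 28, while the other 27 libraries stay at or under 19.3 CPM.

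Gpnmb and Trem2 were called between L and US at day 28. Gpnmb averaged 536 ± 283 CPM in L lungs and 35.2 ± 10.1 CPM in US lungs at day 28 (SD, n = 3 each, log2 3.93 ± 0.48, edgeR adjusted p = 2.5e-05). Trem2 averaged 38.0 ± 17.1 CPM in L lungs and 6.42 ± 1.28 CPM in US lungs (log2 2.56 ± 0.35, edgeR adjusted p = 0.000139). Their difference at day 28 was not shown to exceed that at day 7 (interaction 2.14 ± 0.62 for Gpnmb, edgeR adjusted p = 0.569, and 0.83 ± 0.47 for Trem2, adjusted p = 0.823). The median of the 20 particle macrophage genes between L and US was -0.13 at day 1, 0.38 at day 7 and 0.89 at day 28. In the interaction between days 28 and 7, edgeR called 1 of 16903 genes (0.00592%), Nr1d2, a transcriptional repressor of the clock. It stood at 190, 196 and 205 CPM in L lungs and 233, 182 and 274 CPM in US lungs at day 7, with overlap. S lungs held 86.5, 93.0 and 82.1 CPM and D lungs 89.9, 117.3 and 58.0 CPM at that day. At day 28 Nr1d2 stood at 169, 123.8 and 165 CPM in L lungs and 38.0, 46.0 and 37.8 CPM in US lungs, without overlap. S lungs then held 96.1, 82.8 and 64.2 CPM and D lungs 27.5, 27.7 and 23.9 CPM. The difference of differences in Nr1d2 was 2.13 (log2, edgeR adjusted p = 0.000772). Between L and US at day 28 the activator arm of the clock had a median of -1.15 and the output and repressor arm 0.77.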

How the data were processed

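RNA-seq was done on 36 mouse lung libraries in 12 groups of 3, made with a stranded poly-A kit after RNA with an integrity number under 8 had been discarded, per the labels' protocols. The deposited table of the authors holds raw read counts for 46078 genes, and the authors' deposited file of each library holds TPM values. The submitters' processing notes name bcl2fastq 2.19.1.403, CASAVA, STAR 2.5.1b, featureCounts 1.5.1, StringTie 1.3.3 and the builds GRCh37 and GRCm38. The sources used here do not give the role of each, the annotation release or the strand setting, so antisense and overlapping genes are uncertain.

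Counts were tested with edgeR 4.0.16 in R 4.3.3: 1 fit of all 12 groups, TMM scaling, filterByExpr (16903 genes kept), the quasi-likelihood test and Benjamini-Hochberg adjustment at 0.05. SE is the log2 fold change divided by the square root of F. CPM uses TMM-scaled library totals, and scores use log2(CPM + 0.5). Alternatives were DESeq2 1.42.0, limma 3.58.1 on log2(TPM + 1), other scalings and filters, smaller fits, single libraries left out, the replicate number as a block, and removal of GC and length trends. Named genes were the called genes and the first 3 of each of 48 lists; others are marked. The gene lists, and the choice of libraries, were made with earlier results of these data known. The edgeR test was also run on simulated counts with known fold changes. Those counts held no GC or length trends, so the run cannot show how such trends affect the calls. The carbon nanotube and day 90 groups were not analysed here.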

Additional observations from a re-analysis of the deposited data

Results flagged for a closer look

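The effect of large against ultrasmall sheets on Nr1d2 differed between day 28 and day 7 by 2.13 on the log2 scale (edgeR's quasi-likelihood test of the interaction, adjusted p = 0.000772). L libraries were higher than US libraries in 3 of 3 at day 28 (log2 1.91 ± 0.21 SE), and the groups overlapped at day 7 (log2 -0.22 ± 0.20). The hour at which tissue was taken is not labelled and its part was not tested.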

How the results depend on the processing

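edgeR called 1 gene at day 7 with RLE size factors, the 12 libraries of day 7, no S libraries, and GC and length trends removed, and limma on the TPM scale called 1 as well. It called 3 genes with no filter on low counts and 0 in a fit of the 6 libraries alone (Mmp12 adjusted p = 0.11), and DESeq2 called 3. Leaving out single libraries gave 1 to 862 genes, with 862 without L replicate 3, 5 without US replicate 2 and 3 without L replicate 2; the cause was not tested. For day 7 minus day 1, against 0, no filter, DESeq2, GC and length trends removed, and the same with the replicate block called 1 gene each, and single libraries left out gave 0 to 2. For day 28 minus day 7, against 1, no filter called 7, DESeq2 9 and a fit of the groups compared 7. The clock genes Dbp, Npas2 and Per3 were called beside Nr1d2 in each of these fits, as was Npr3. Single libraries left out gave 1 to 4. The cause was not tested.

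Direction turned on the TPM scale for Npas2 (-0.10) and Eln (-0.0083). As single libraries were left out, log2 differences ran from -0.087 to 0.32 for Eln, -0.40 to 0.23 for Marco, -0.81 to 0.062 for S100a8, -0.83 to 0.14 for S100a9 and -0.76 to 0.39 for Cxcl5. Of 63 genes examined singly, 17 changed their call or direction without L replicate 3, 1 to 3 without each other library, 2 each with DESeq2, no filter and the TPM scale, and 0 with RLE, the replicate block or GC and length trends removed. List medians moved beyond their spread in 8 of 47 lists with GC and length trends removed, in 12 on the TPM scale and in 0 with RLE. GC and length correction of the interactions was chosen after seeing the data. Same-numbered L and US libraries had deviations correlated at -0.457, -0.027 and 0.245, and differently numbered ones at -0.525 to 0.549. Deviations from means of 3 libraries are not independent, so these values cannot show whether the numbers mark pairs. A fit with the replicate block called 1 gene at day 7, with Mmp12 at 4.35.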
